A study of Mus musculus with 12 samples.

Results

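The circadian clock drives rhythms in transcription through a set of output regulators, and 9 of them were examined here in the medial prefrontal cortex (mPFC) of mice after chronic social defeat (CSD) and of homecage (HC) mice. They are Dbp, Tef, Hlf, Nfil3, Nr1d1, Nr1d2, Ciart, Bhlhe40 and Bhlhe41, and all 9 were among the 17656 genes measured. A gene was counted as measured where a probe set was annotated to it and to no other gene, and the brightest such probe set over the 12 arrays, with at least 1 value above system noise, stood for it. These genes were selected on this same comparison, so their CSD and HC values are given as a description, with no test.
The 6 CSD mice were adult wild-type male C57BL/6 mice that lived beside a dominant CD-1 male behind a perforated partition for 14 days, met it for 5 min on each day, and passed behavioral inclusion criteria. The 6 HC mice were wild-type males in group housing, so defeat and housing differed together. Tissue was taken 24 h after the last defeat from saline-perfused brains, and 200 ng of total RNA from each mouse was hybridized to 1 Affymetrix Mouse Gene ST array. Their age in weeks and the hour of dissection were not found in the sources that were read. Since transcripts of these genes change over the day, a difference in the hour of dissection and an effect of CSD cannot be told apart. In bulk tissue, fewer cells of a type and less RNA per cell cannot be told apart either. The values are log2 RMA values (robust multi-array average), so a difference of -1 would be a halving, and values are compared between mice for the same probe set only.

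In the clock of mammals, CLOCK and BMAL1 (encoded by Arntl) bind E-boxes and drive their own repressors, the PER and CRY proteins, as well as the genes described here. DBP, TEF and HLF are activators of the PAR bZIP family that bind D-boxes, and NFIL3 (E4BP4) represses through the same sites. REV-ERB alpha (Nr1d1) and REV-ERB beta (Nr1d2) are heme-binding nuclear receptors that repress Arntl together with a corepressor complex that holds the deacetylase HDAC3. CIART (CHRONO) and the DEC proteins (Bhlhe40 and Bhlhe41) repress transcription driven by CLOCK and BMAL1. In mouse brain, as in other tissues, Dbp and Nr1d1 have rhythms of large amplitude, whereas those of Tef and Hlf are shallower.

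The sequences upstream of the genes differ in how many of the motifs read by these factors they hold. RefSeq windows of 250 bases before the annotated start site (GRCm38.p6) were found for 8 of the 9 genes, with both of the starts of Tef. They were searched on both strands for the E-box CACGTG, the E-prime box CACGTT, the D-boxes TTATGTAA and TTACGTAA, and AGGTCA, the core of the element that REV-ERB proteins bind. None of these motifs is contained in another. The windows of the members with the lowest mean in CSD relative to HC (Ciart, Dbp, Nr1d1 and Bhlhe41) and of Tef, whose means were alike, are shown 5′ to 3′ on the strand of the gene, with motif matches in capitals. Ciart lies on the minus strand at chr3:95882229-95882478, Dbp on the plus strand at chr7:45704997-45705246, and Nr1d1 on the minus strand at chr11:98775378-98775627. Bhlhe41 lies on the minus strand at chr6:145865421-145865670, and the first start of Tef on the plus strand at chr15:81802423-81802672.
Ciart: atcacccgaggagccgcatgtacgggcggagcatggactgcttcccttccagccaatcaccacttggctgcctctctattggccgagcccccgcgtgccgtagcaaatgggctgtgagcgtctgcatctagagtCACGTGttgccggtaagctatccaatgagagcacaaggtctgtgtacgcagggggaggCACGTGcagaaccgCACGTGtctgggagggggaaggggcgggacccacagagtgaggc
Dbp: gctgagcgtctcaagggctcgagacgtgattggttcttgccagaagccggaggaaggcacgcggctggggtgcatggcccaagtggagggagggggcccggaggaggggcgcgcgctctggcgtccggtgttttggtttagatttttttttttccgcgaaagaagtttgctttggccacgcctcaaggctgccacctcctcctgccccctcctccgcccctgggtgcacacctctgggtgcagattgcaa
Nr1d1: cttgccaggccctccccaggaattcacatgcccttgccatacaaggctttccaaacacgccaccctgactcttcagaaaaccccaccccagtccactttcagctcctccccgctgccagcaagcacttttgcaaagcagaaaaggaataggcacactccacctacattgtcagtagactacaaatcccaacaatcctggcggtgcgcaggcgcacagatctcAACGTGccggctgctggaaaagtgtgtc
Bhlhe41: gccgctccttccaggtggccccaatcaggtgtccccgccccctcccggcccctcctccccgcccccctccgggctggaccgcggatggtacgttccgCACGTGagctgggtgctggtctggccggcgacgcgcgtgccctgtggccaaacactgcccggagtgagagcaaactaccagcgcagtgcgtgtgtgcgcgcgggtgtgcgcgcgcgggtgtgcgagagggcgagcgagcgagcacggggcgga
Tef: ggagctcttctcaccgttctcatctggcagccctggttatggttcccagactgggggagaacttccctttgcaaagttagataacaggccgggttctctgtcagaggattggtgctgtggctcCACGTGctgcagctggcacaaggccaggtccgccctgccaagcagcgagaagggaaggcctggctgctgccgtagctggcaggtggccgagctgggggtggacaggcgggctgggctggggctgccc
Ciart had 3 E-boxes, at 116 to 111, 58 to 53 and 44 to 39 bases before its start. Bhlhe41 had 1 E-box, at 153 to 148 bases before the start, and Tef had 1 before each of its starts, at 127 to 122 and 138 to 133 bases. An E-box was present in 6.02% of all 32851 RefSeq windows of this length. Nr1d1 had an E-prime box on its minus strand at 28 to 23 bases, a motif held by 3.85% of all windows. AGGTCA was found in Nfil3, at 12 to 7 bases on its minus strand, and in Nr1d2, at 77 to 72 bases, and was held by 14% of all windows. The D-box and its variant, in 0.819% and 0.113% of all windows, were found in 0 of the 8 genes, and among the core clock genes the window of Per3 held 2 D-boxes. Dbp and Hlf had none of the motifs in these windows, which says only that these letters do not occur there. Of the genes with an E-box in the window, Ciart and Bhlhe41 had lower means in CSD and Tef did not. Dbp, with no match, and Nr1d1, with an E-prime box only, had lower means as well. The relation of the motifs to the differences was not tested, and sequence outside these windows was not searched.

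**Figure D1:**
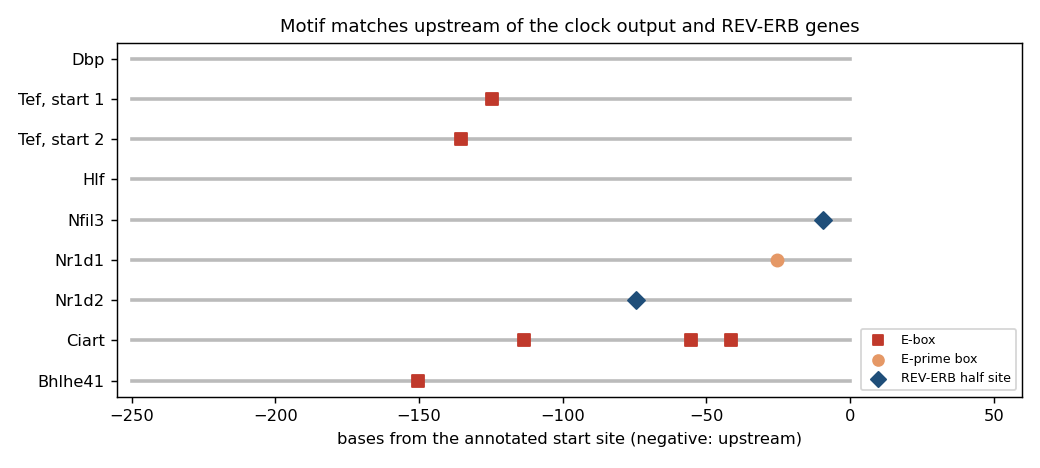
Positions of motif matches in the 250 bases upstream of the annotated start of 8 genes (9 windows). Each grey line is a window, the x axis gives bases from the start site, and symbols mark E-boxes, the E-prime box and AGGTCA. Ciart carries 3 E-boxes, whereas Dbp and Hlf carry no match.

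Of the PAR bZIP activators, Dbp had a lower mean in CSD mice, whereas Tef and Hlf had nearly the same means in both groups. The values of Dbp ranged over 10.30, 10.49 and 10.66 (lowest, median and highest log2 value) in CSD mice, against 10.61, 10.83 and 10.87 in HC mice. In 5 of 6 CSD mice Dbp was below every HC mouse, and only HC replicate 5, at 10.61, lay below the highest CSD mouse. The means were 10.47 ± 0.14 in CSD and 10.80 ± 0.10 in HC (SD, n = 6 each), a difference of -0.33 ± 0.07 (limma SE), so that the CSD mean was 79.7% of the HC mean on the linear scale. Tef, which binds the same sites as Dbp, averaged 10.42 ± 0.07 in CSD mice and 10.42 ± 0.08 in HC mice, with ranges of 10.33 to 10.52 and 10.33 to 10.57. Hlf averaged 10.44 ± 0.07 in CSD mice and 10.45 ± 0.07 in HC mice. The differences of Tef and Hlf were 0.003 ± 0.05 and -0.004 ± 0.04, and both changed sign with the array left out or the scaling used. Nfil3, the repressor at D-boxes, was the only member besides Tef with a higher mean in CSD. It ranged over 7.26, 7.37 and 7.55 in CSD mice, against 7.14, 7.33 and 7.47 in HC mice, so that the groups overlapped, and its difference was 0.07 ± 0.07.

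The REV-ERB genes had differences of unequal size, although the gap between them was not tested. Nr1d1, which encodes REV-ERB alpha, ranged over 10.82, 11.04 and 11.16 in CSD mice, against 11.14, 11.29 and 11.44 in HC mice. Again 5 of 6 CSD mice were below every HC mouse, and HC replicate 5 was the HC mouse that overlapped. The means were 11.01 ± 0.13 in CSD and 11.29 ± 0.11 in HC, a difference of -0.28 ± 0.07, or 82.2% of the HC mean. Nr1d2, which encodes REV-ERB beta, averaged 10.76 ± 0.06 in CSD mice and 10.82 ± 0.06 in HC mice. Its difference was -0.06 ± 0.04, 3 of 6 CSD mice were below every HC mouse, and its ranges, 10.68 to 10.83 in CSD and 10.74 to 10.90 in HC, overlapped broadly. Of 3 listed genes of the REV-ERB corepressor complex, 1 was analysed here. This gene, Hdac3, averaged 11.44 ± 0.04 in CSD mice and 11.44 ± 0.08 in HC mice.

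Among the repressors of CLOCK and BMAL1, Ciart had the lowest mean in CSD relative to HC of all 9 members by its brightest probe set, but not by its second one. Its values ranged over 9.60, 9.80 and 10.19 in CSD mice, against 10.12, 10.31 and 10.44 in HC mice. The CSD mice spread more widely than the HC mice, with replicates 8, 9 and 10 at 9.60, 9.73 and 9.67 and replicate 6 at 10.19. The means were 9.85 ± 0.23 in CSD and 10.31 ± 0.12 in HC, a difference of -0.46 ± 0.10, or 72.9% of the HC mean, with 5 of 6 CSD mice below every HC mouse. A second probe set of Ciart gave a smaller difference. It averaged 8.98 ± 0.15 in CSD mice and 9.24 ± 0.16 in HC mice, a difference of -0.26 ± 0.08, with 4 of 6 CSD mice below every HC mouse. By this set the difference of Ciart would be smaller than those of Dbp, Nr1d1 and Bhlhe41. Ciart lies on chromosome 3, and the 10 named probe sets nearest in number to the second set were of genes on chromosome 3, whereas the 10 nearest to the brightest set were of genes on chromosome 10. Over the 6 mice of a group, both sets were related with an r of 0.71 in CSD (exact permutation p = 0.124, adjusted 0.247; rho 0.60, exact permutation p = 0.242) and 0.32 in HC (exact permutation p = 0.542, adjusted 0.542; rho 0.20, exact permutation p = 0.714). Without the 2 mice of a group farthest from its median, r was -0.21 in CSD and -0.97 in HC, so neither relation held without them. The smaller difference is the one from the set numbered among the neighbors of Ciart.
Bhlhe41 (DEC2) ranged over 8.27, 8.50 and 8.60 in CSD mice, against 8.39, 8.76 and 8.85 in HC mice. Only 2 of 6 CSD mice were below every HC mouse, because HC replicate 5, at 8.39, lay among the CSD values, and the other 5 HC mice were above all 6 CSD mice. The means were 8.45 ± 0.14 in CSD and 8.72 ± 0.16 in HC, a difference of -0.27 ± 0.08, or 83.1% of the HC mean. Bhlhe40 (DEC1), its close relative, overlapped more. It ranged over 9.29, 9.56 and 9.57 in CSD mice, against 9.42, 9.68 and 9.92 in HC mice, with a difference of -0.16 ± 0.08 and 2 of 6 CSD mice below every HC mouse.

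**Figure D2:**
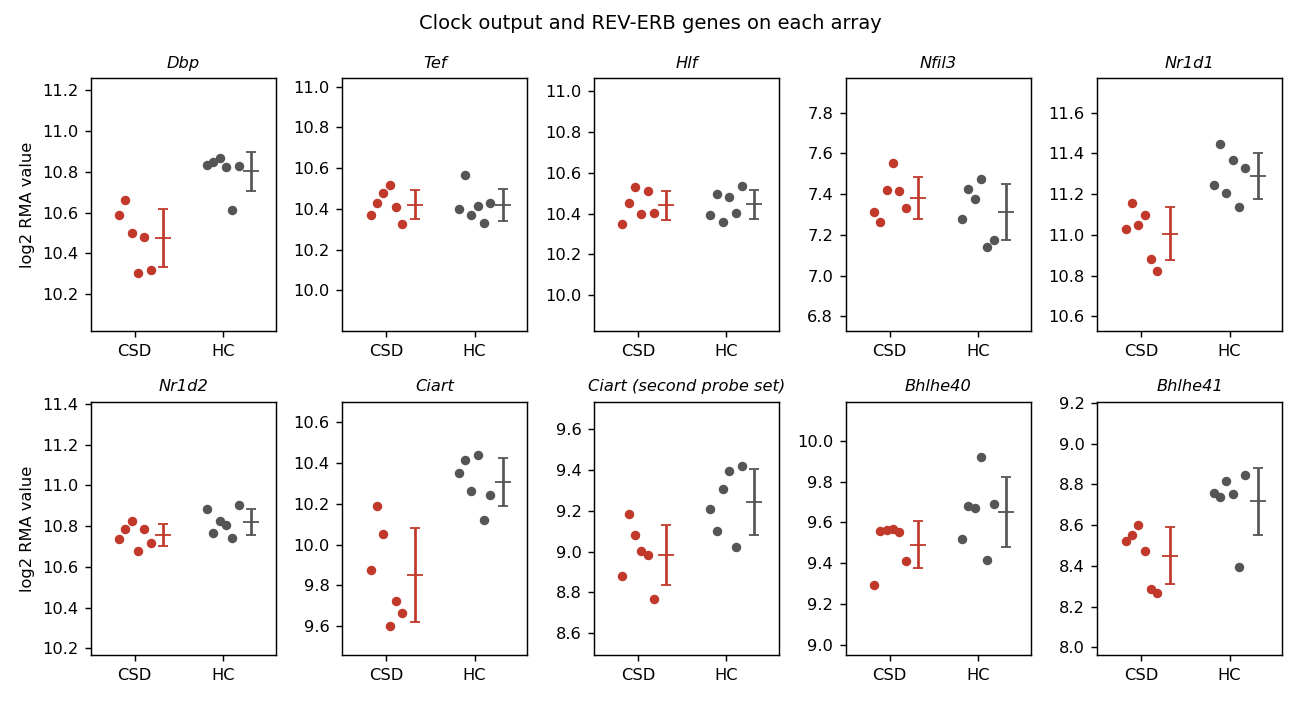
The log2 RMA value of each clock output gene on each array, CSD (red) left of HC (grey), with the mean and SD of 6 mice beside the points. All panels span the same number of log2 units, and the ranges of the groups overlap in every panel. Dbp, Nr1d1, Ciart, Bhlhe40 and Bhlhe41 have all 6 CSD mice below the HC mean, whereas Tef and Hlf have 3.

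Of the 9 members, 7 had a lower and 2 a higher mean in CSD mice, with a median difference of -0.16, beside 10088 lower and 7568 higher means and a median of -0.01 over all 17656 genes. Over the settings run, 6 to 8 of the 9 members had a lower mean. No member passed limma at an adjusted p under 0.05 with a fold change of at least 1.2, as was the case for 0% of all genes. With that fold limit but a limma p below 0.05 before adjustment, 4 of 9 members (Ciart, Dbp, Nr1d1 and Bhlhe41) were lower in CSD, beside 0.600% of all genes. Without a fold limit 4 were lower, beside 6.52% of all genes, and 0 were higher, beside 1.89%. The groups did not overlap for 0 of 9 members, beside 0.935% of all genes that had every CSD mouse below every HC mouse. As the genes were chosen with these differences known, nothing is read from these counts. With the fold limit, the count of 4 fell to 2 without CSD replicate 9, without CSD replicate 10, and with array weights. It was also 2 without HC replicates 2 and 6 together. The count was 3 with quantile normalization and without HC replicate 1, 2, 3, 4 or 6. It was 3 as well with the second probe set of Ciart, whose fold of 1.197 missed the limit. With no fold limit the count was 4 or 5 in every setting run.

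The members varied to unequal extents among mice of the same group. Within groups, the SD of Ciart by its brightest probe set, 0.185, was larger than that of 96.1% of all genes. Its second set had an SD of 0.146 in CSD and 0.161 in HC mice and was not ranked. The SD of Bhlhe41, Bhlhe40, Nfil3, Nr1d1 and Dbp were larger than those of 89.0%, 86.5%, 72.2%, 72.1% and 72.0% of genes. By contrast, the SD of Tef, Hlf and Nr1d2 were larger than those of only 25.9%, 21.4% and 11.9% of genes. HC replicate 5 was the lowest HC array for 8 of 9 members, Hlf being the exception, whereas it was the lowest HC array for 22.7% of all genes. Without this mouse, the difference was -0.49 for Ciart, -0.37 for Dbp, -0.31 for Nr1d1 and -0.33 for Bhlhe41. Among CSD mice, replicates 8 and 10 were the lowest for 3 members each, beside 22.8% and 16.6% of all genes. Replicates 6, 7 and 8 were the highest for 3 members each, beside 9.6%, 21.6% and 15.5% of all genes. Leaving out any array in turn gave -0.52 to -0.41 for Ciart, -0.37 to -0.29 for Dbp, -0.31 to -0.25 for Nr1d1 and -0.33 to -0.23 for Bhlhe41.

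**Figure D3:**
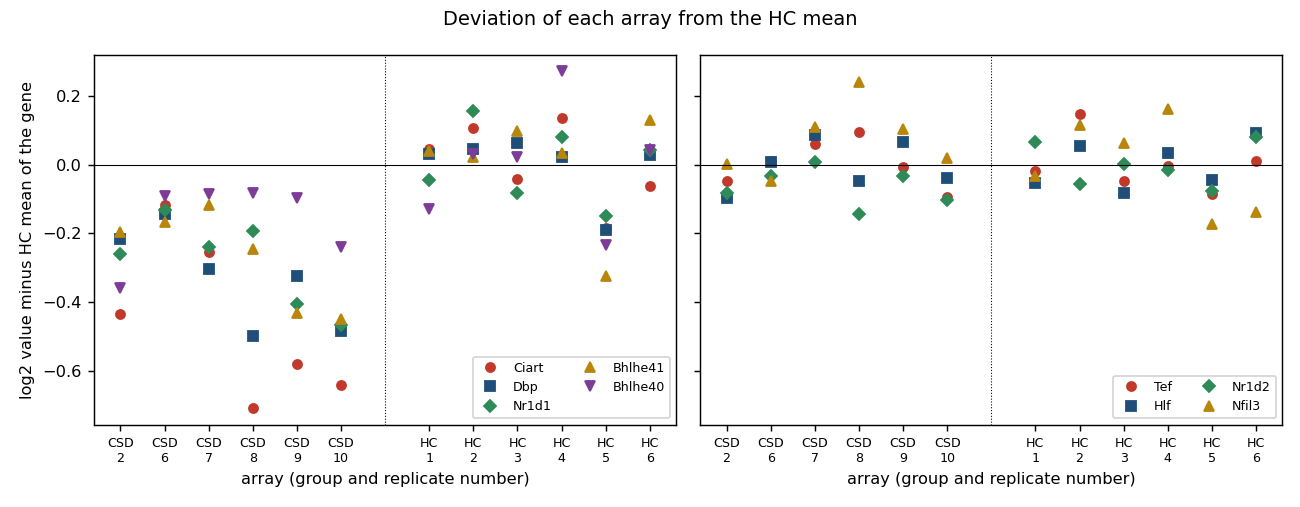
Deviation of each array from the HC mean of the gene, in log2 units, for CSD (left of the dotted line) and HC mice, with 5 members in the left panel and 4 in the right. HC replicate 5 lies below 0 for all 5 genes of the left panel, and the CSD mice lie below 0 for all of them.

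Whether the genes moved together from mouse to mouse was examined within each group, which the choice of genes did not use. The relation of Dbp with the other members and with 6 core clock genes gave 28 correlations over 6 mice each. Ciart was taken here by its brightest probe set, and its second set was not compared with Dbp. Dbp and Ciart were related in CSD mice with a Pearson r of 0.86 (exact permutation p = 0.0375) and a Spearman rho of 0.94 (exact permutation p = 0.017), but the adjusted exact permutation p of r was 0.65. Without CSD replicates 6 and 8, the farthest from the median of Dbp, r was 0.615. In HC mice r was 0.71 (exact permutation p = 0.119) and rho 0.26 (exact permutation p = 0.658), and r was 0.15 without HC replicates 3 and 5 and -0.35 without replicate 5 alone. The HC relation of Dbp with Bhlhe41 had an r of 0.96 (exact permutation p = 0.0639) and a rho of 0.43 (exact permutation p = 0.419). It rested on HC replicate 5, since r was 0.13 without this mouse, and -0.38 without replicates 3 and 5. For Dbp and Nr1d1, r was 0.48 in CSD mice (exact permutation p = 0.325; rho 0.37, exact permutation p = 0.497) and 0.60 in HC mice (exact permutation p = 0.264; rho 0.20, exact permutation p = 0.714). The CSD value was 0.91 without CSD replicate 8 and 0.18 without replicate 6 or without replicate 10, and the HC value was -0.36 without HC replicate 5. With Arntl, which is transcribed at the opposite phase of the day, r was -0.73 in CSD mice (exact permutation p = 0.10; rho -0.83, exact permutation p = 0.058) and 0.39 in HC mice (exact permutation p = 0.582; rho 0.14, exact permutation p = 0.803), and the HC value was -0.29 without HC replicate 5. None of the 28 correlations passed the Benjamini-Hochberg adjustment, 1 had a raw p under 0.05, and the difference between the groups in r was not tested.

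**Figure D4:**
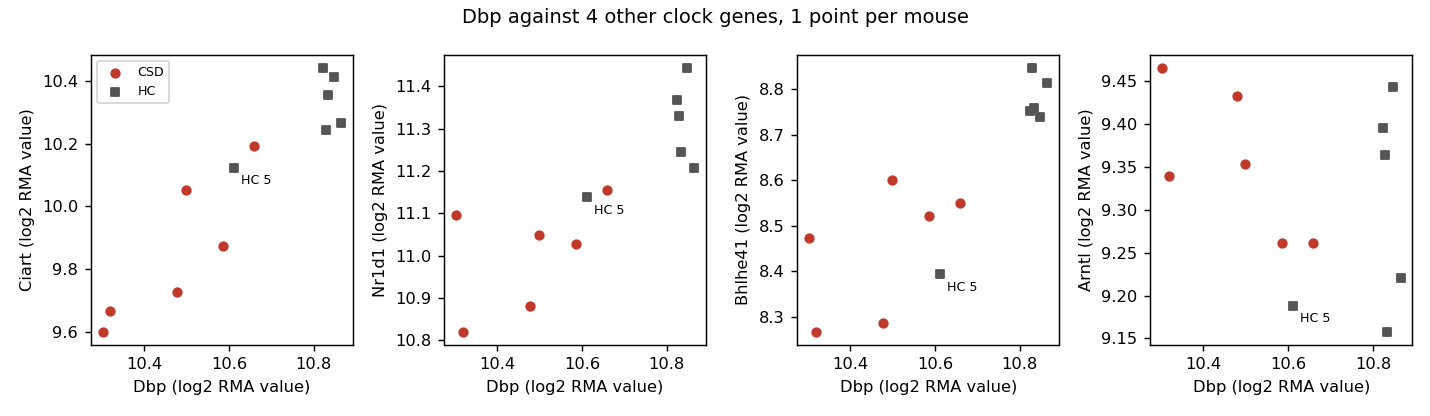
The log2 RMA value of Ciart, Nr1d1, Bhlhe41 and Arntl (y axes) against that of Dbp (x axes), with 1 point per mouse, CSD in red circles and HC in grey squares. Ciart is shown by its brightest probe set. In HC mice the value of Dbp is nearly constant in 5 mice, and HC replicate 5 lies apart from them.

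The core clock genes were then examined as the other genes of the pathway, from a list of 17 of which 14 were measured. The other genes of the list were not analysed here. Of the 14 genes 5 had higher and 9 lower means in CSD mice, beside 7568 higher and 10088 lower of all 17656 genes. The differences ranged from -0.19 to 0.06 with a median of -0.03. With adjustment over all probe sets 0 passed limma, beside 0% of all genes. With the arrays centred on their medians 12 of the 14 had lower means. At an unadjusted p under 0.05, 0 of the 14 genes passed in either direction, beside 6.52% of all genes lower and 1.89% higher. Over the settings run 0 to 2 of the 14 were lower. With so few genes, these counts do not set the list apart from all genes. Arntl, the gene that REV-ERB proteins repress, averaged 9.35 ± 0.09 in CSD mice and 9.30 ± 0.12 in HC mice, a difference of 0.06 ± 0.06 (limma adjusted p = 0.857). Clock, its partner, averaged 10.45 ± 0.06 in CSD mice and 10.44 ± 0.02 in HC mice (limma adjusted p = 0.975). Per1, an E-box gene that also responds to glucocorticoids and neuronal activity, had the lowest mean in CSD relative to HC of this list. It ranged over 9.52, 9.78 and 9.98 in CSD mice, against 9.80, 9.88 and 10.14 in HC mice, a difference of -0.19 ± 0.09 (limma adjusted p = 0.614), and its groups overlapped. Per2 and Per3, whose proteins repress CLOCK and BMAL1 with the CRY proteins, differed by 0.01 ± 0.08 (limma adjusted p = 0.987) and 0.04 ± 0.07 (limma adjusted p = 0.902), and Per2 changed sign with the arrays centred on their medians. Cry1 and Cry2 differed by -0.06 ± 0.05 (limma adjusted p = 0.824) and -0.08 ± 0.04 (limma adjusted p = 0.655). A p above the threshold does not show that these genes were alike in CSD and HC mice. Whether the differences of Dbp, Nr1d1 and Ciart were larger than those of the core genes was not tested.

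Among 6 clock-controlled genes, 5 had lower means in CSD mice and 0 passed limma with adjustment, beside 0% of all genes. Of the 6 genes, 2 had every CSD mouse below every HC mouse, beside 0.935% of all genes. They were Cirbp and Rbm3, which encode cold-inducible RNA-binding proteins whose levels vary with the daily rhythm of body temperature. Cirbp ranged over 9.54, 9.80 and 9.97 in CSD mice, against 9.98, 10.09 and 10.35 in HC mice. Its difference was -0.35 ± 0.08 (limma adjusted p = 0.20), and the adjusted p ranged from 0.103 to 0.394 over the alternatives run. Rbm3 ranged over 11.61, 11.83 and 11.88 in CSD mice, against 11.94, 12.02 and 12.13 in HC mice, a difference of -0.25 ± 0.06 (limma adjusted p = 0.177, 0.0901 to 0.342 over the alternatives). The 3 probe sets of Rbm3 gave -0.24, -0.25 and -0.23, each with all 6 CSD mice below all HC mice. Whether each set is numbered among the neighbors of Rbm3, as was asked for Ciart, was not examined. The 3 sets are therefore not taken as independent measures of this gene. At an unadjusted p under 0.05, 2 of the 6 genes (Cirbp and Rbm3) were lower, beside 6.52% of all genes, and 1 (Cirbp) passed the fold limit as well, beside 0.600%. The other 4, the PAR bZIP target Pdxk, the REV-ERB target Fabp7, the deubiquitinase Usp2 and the cell cycle kinase Wee1, differed by -0.10 to 0.001. The list was drawn up with earlier results of these data known.

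**Figure D5:**
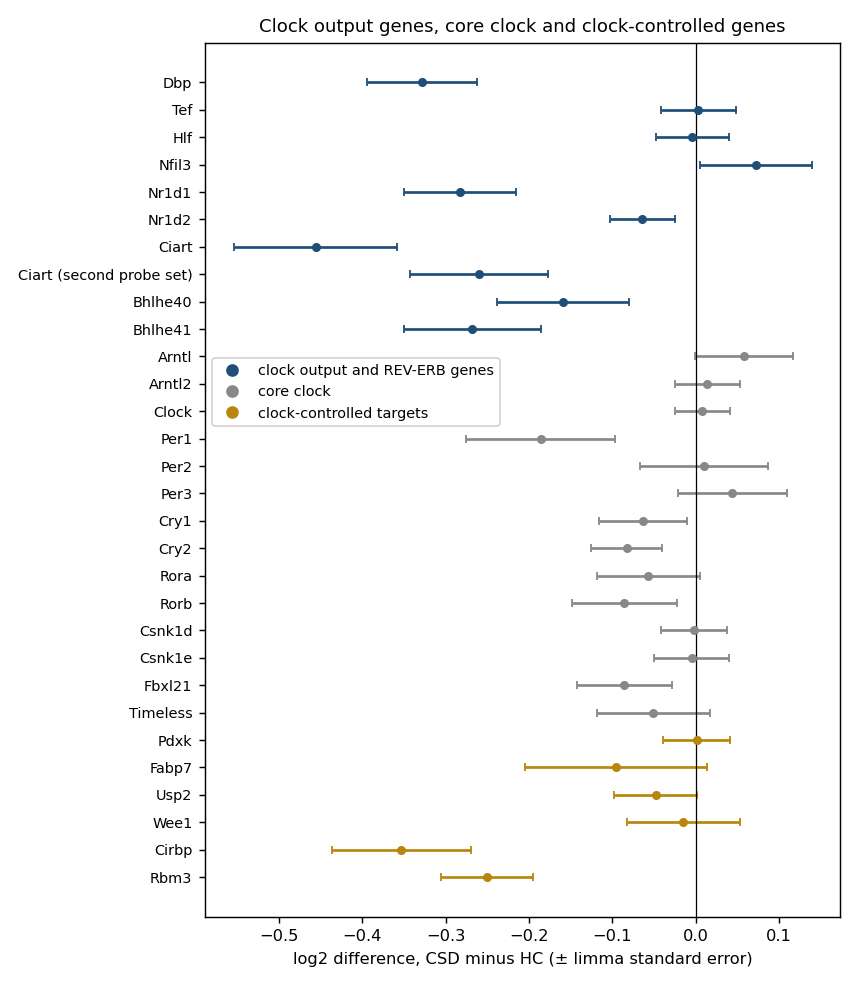
The log2 difference of each gene (CSD minus HC, x axis, points) with its limma standard error (bars), for the clock output genes (blue), core clock genes (grey) and clock-controlled genes (gold). Ciart lies at -0.46 by its brightest probe set and at -0.26 by its second, Dbp at -0.33 and Cirbp at -0.35. The core clock genes lie between -0.19 and 0.06, as do the members Tef, Hlf, Nr1d2 and Bhlhe40, and Nfil3 lies at 0.07.

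The 12 arrays resembled each other closely, with a median correlation to the other arrays of the group of 0.994 to 0.995 in CSD mice and 0.990 to 0.993 in HC mice. HC replicate 2 had the highest array median, 7.687, and was the highest HC array for 52.3% of all genes. Its limma array weight was 0.259 and that of HC replicate 6 was 0.397, whereas the other arrays had weights of 0.898 to 1.882. Markers of excitatory cortical neurons were bright in both groups, with mean levels of 12.05 to 12.26 in CSD and 12.10 to 12.23 in HC, which is what a cortical sample should show. Markers of oligodendrocytes stood lower in CSD beside the clock output genes. All 7 of the measured markers of 8 listed had lower means in CSD mice, with a median of -0.64 and a range of -0.84 to -0.32, and 6 of the 7 had no overlap between the groups, beside 0.935% of all genes. Their mean level per mouse was 9.53 to 10.11 in CSD mice and 10.20 to 10.73 in HC mice, and none was near the system noise of 5.75. The medians for astrocytes, microglia, inhibitory neurons and endothelial cells were -0.08, -0.06, -0.09 and -0.05. Markers of striatal neurons, 3 of 4 measured, all had lower means, with a median of -0.16, and their mean level per mouse was 8.72 to 9.21 in CSD and 8.82 to 9.19 in HC. The 3 choroid plexus markers had a median of -0.04, and the 1 measured red blood cell marker differed by 0.14. Immediate early genes had a median of -0.25, with 9 of 10 lower, and glucocorticoid-responsive genes had a median of -0.07, with 6 of 9 lower. The glucocorticoid-responsive genes moved in both directions, from -0.31 for Sgk1 to 0.26 for Fkbp5. In each of these lists 0 genes passed limma with adjustment, beside 0% of all genes. The part of these gene groups in the differences of Dbp, Nr1d1, Ciart and Bhlhe41 was not tested.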

How the data were processed

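A single array was hybridized for each of 6 CSD and 6 HC mice, separate animals, and the number of arrays limits the precision. The log2 values deposited by the authors had been summarized by RMA in the Affymetrix Expression Console (versions not given in the sources used here). There were 35556 probe sets for 12 arrays and 0 other columns of per-sample values.

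The methods state no value for system noise, so it was set at 5.75, which is the 20th percentile over the whole table. Of the probe sets 5718 without a value above it were left out, 29838 remained, and 4.67% of their values were raised to it. Differences (CSD minus HC) were fitted with limma 3.58.1 (R 4.3.3, functions lmFit and eBayes). Its two-sided p-values were adjusted by Benjamini-Hochberg over the 29838 probe sets, and a call required an adjusted p below 0.05 with a fold change of 1.2 or more. Correlations used two-sided exact permutation tests over 720 pairings. In the platform annotation of 2016, 21789 probe sets had 1 gene (21698 of them found in a RefSeq gene table), 1621 had several, and 12146 had no gene. The scripts were tested on simulated data. Plots were made with matplotlib 3.10.9 (Python 3.11.15).

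The members, gene lists and tests were chosen with earlier results of these data known. By rule, the genes named were the 9 members, measured core clock genes and the 2 genes with the smallest limma p from each other list. The rule also named the 5 genes most and the 5 genes least like the mean of Ciart, Dbp, Nr1d1, Nr1d2 and Tef. The remaining clock-controlled genes and Hdac3 were named after their values were seen. Alternatives were no floor, no filter, a higher noise level, median centring, quantile normalization, probe sets with 1 gene only, a robust mean-variance trend, array weights, a block on the replicate number, the methods' t-test, other thresholds, the mean over probe sets, and leaving out arrays.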

Additional observations from a re-analysis of the deposited data

Results flagged for a closer look

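The 3 values below stood apart from the other mice of their group by Dixon's 95% limit for 6 values. Dbp in HC replicate 5, at a log2 value of 10.61, had a gap to the nearest HC mouse of 0.838 of the range of the group. Bhlhe41 in the same mouse, at 8.39, had a gap of 0.761. Cry1 in HC replicate 2, at 8.43, had a gap of 0.648. In all 38 groups were examined, and chance gives about 1 such value in 20 groups.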

How the results depend on the processing

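No probe set was called by limma, whereas 1 was called with quantile normalization, 21 with only probe sets annotated to 1 gene, 14 with a robust mean-variance trend, and 406 at an unadjusted p with the fold limit of 1.2. The methods' t-test with adjustment called 0. The causes were not tested, except that fewer probe sets were adjusted over in the second of these. Ciart differed by -0.26 in its second probe set, a setting chosen after seeing the data. Clock was -0.005 and Per2 -0.003 with arrays centred on their medians, and leaving out each array in turn gave -0.006 to 0.029 for Clock and -0.041 to 0.053 for Per2. The median of the 9 members was -0.17 to -0.14 over the other alternatives and -0.21 to -0.11 without single arrays. With the replicate block it was -0.15, against -0.16 without. The groups share only the numbers 2 and 6, whose deviations correlated at -0.21 and -0.04, so the numbers were not taken as pairs, and the block changed no call. Core clock calls and adjusted correlations with Dbp stayed at 0 in every setting run. Scaling moved the median of all probe sets by under 0.1. Depth does not apply to arrays, and 6 mice a group limits which differences can be called. The ranking of genes by their likeness to the mean of Ciart, Dbp, Nr1d1, Nr1d2 and Tef was not recomputed.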

Other observations

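Genes were ranked by the Pearson r of their group-centred values with the mean of Ciart (brightest probe set), Dbp, Nr1d1, Nr1d2 and Tef, over 12 arrays and 17647 genes. The mean was not scaled, so Ciart, with the largest SD of these members, weighs most. The members in the mean did not share a single profile, since their r with each other ranged from -0.02 (Tef and Nr1d2) to 0.82 (Ciart and Dbp). The ranks are descriptions over arrays that share their groups. The highest were Serpinb1a, a protease inhibitor, at 0.90, the interferon-induced Ifit2 at 0.88, Tmem42 at 0.87, Gpank1 at 0.87 and Dpagt1 at 0.87, and Serpinb1a had a mean of 6.50 in CSD mice and 6.93 in HC mice. The lowest were Gm5464 at -0.79, Olfr213 at -0.76, Gar1 at -0.76, Tchp at -0.76 and Bloc1s4 at -0.72. Among clock genes, r was 0.56 for Cirbp, 0.55 for Cry2, 0.52 for Cry1, 0.36 for Per1, 0.08 for Arntl, 0.03 for Rbm3 and -0.04 for Per2, and the 20 core clock and clock-controlled genes ranged from -0.18 for Pdxk to 0.56 for Cirbp.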
